A study of Mus musculus with 6 samples.

Results

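The 8 genes described here are Tmem97 and the sterol genes Hmgcs1, Idi1, Fdft1, Sqle, Lss, Dhcr7 and Insig1. They were taken by gene symbol from a table of 31815 mouse genes, and each symbol stood on 1 row. Their values came from 6 RNA-seq libraries of cells sorted by fluorescence from kidney cortex and outer medulla of male mice aged 9 to 12 weeks, on day 6 after both kidneys underwent ischemia reperfusion injury, in which blood flow is stopped and then restored. All libraries came from mice of the genotype Axin2CreERT2/+:R26RtdT/+:Acta2-GFP that had tamoxifen on days 2 and 4. In these mice a Cre recombinase that needs tamoxifen is driven from the Axin2 gene, which responds to canonical Wnt signals, and turns on the red protein tdT for good, while the promoter of Acta2, the smooth muscle actin gene of myofibroblasts, drives GFP. The tdT+GFP+ group (3 libraries) held cells with both colours, and the tdT-GFP+ group (3 libraries) held green cells without red, with a library of each kind from kidneys 1, 2 and 3. The comparison asks how green cells marked by past Axin2 expression differ from the other green cells of the same kidneys.

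The set was chosen with results of this comparison known. Tmem97 was chosen by its small p-value in this contrast, among genes higher in the red cells of every kidney, and the others were added as its pathway. Their differences between the 2 groups are therefore given as descriptions, with no test.

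Cells make cholesterol from acetyl-CoA by the mevalonate pathway, which builds isoprenoid units, joins them to squalene and closes squalene into the ring of lanosterol, which is then trimmed to cholesterol. When sterol in the endoplasmic reticulum runs low, the transcription factor SREBP2 is carried by SCAP to the Golgi and cut free to switch on the genes of the enzymes, and the INSIG proteins hold SCAP back when sterol is plentiful. TMEM97, also known as the sigma-2 receptor, is a membrane protein of the endoplasmic reticulum that binds the lysosomal cholesterol transporter NPC1 and is itself a sterol-regulated gene in human cells.

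The DNA just upstream of annotated starts of these genes is shown because they share a regulatory pathway and, in part, a profile over the libraries. RefSeq start sites (GRCm38.p6) were matched for 6 of the 8 genes (Tmem97, Hmgcs1, Idi1, Lss, Dhcr7 and Insig1), and Fdft1 and Sqle were not matched. The 250 bases before each start were searched on both strands. The stretches are written 5′ to 3′ along the gene's own strand and end before the GENCODE start of the gene. Capitals mark CCAAT, the letters of the NF-Y box (ATTGG on the other strand), and TCACNCCAC, the letters of a sterol regulatory element.
Tmem97 (chr11:78550778-78550985, minus strand): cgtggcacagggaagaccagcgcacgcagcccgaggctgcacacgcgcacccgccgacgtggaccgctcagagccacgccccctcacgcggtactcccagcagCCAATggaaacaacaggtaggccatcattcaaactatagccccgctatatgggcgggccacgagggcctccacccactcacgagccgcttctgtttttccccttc
Hmgcs1 (chr13:119690101-119690350, plus strand): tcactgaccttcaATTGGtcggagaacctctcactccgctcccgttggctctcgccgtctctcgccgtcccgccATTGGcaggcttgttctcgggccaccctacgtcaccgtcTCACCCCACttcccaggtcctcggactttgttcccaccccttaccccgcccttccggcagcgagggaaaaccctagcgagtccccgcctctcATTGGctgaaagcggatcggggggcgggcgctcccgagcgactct
Lss (chr10:76531355-76531587, plus strand): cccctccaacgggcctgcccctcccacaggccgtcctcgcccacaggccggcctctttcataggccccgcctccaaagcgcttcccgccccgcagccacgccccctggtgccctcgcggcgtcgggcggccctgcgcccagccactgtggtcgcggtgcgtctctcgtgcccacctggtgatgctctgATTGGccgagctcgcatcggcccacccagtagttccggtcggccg
Insig1 (chr5:28071162-28071362, plus strand): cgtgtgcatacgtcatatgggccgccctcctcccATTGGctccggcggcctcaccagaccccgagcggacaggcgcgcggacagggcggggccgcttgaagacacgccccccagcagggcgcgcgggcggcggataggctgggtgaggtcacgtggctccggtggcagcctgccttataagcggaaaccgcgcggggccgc

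All 6 matched genes held CCAAT in at least 1 window, as did 11 of the 13 matched genes among 16 other enzymes of the pathway. Of 32817 single windows of the same length, 33.83% did. A gene with several starts counted if any of its windows held the letters, so counts of genes and shares of windows differ in unit. Dhcr7 had 3 annotated starts, and only its window at chr7:143829964-143830213 held CCAAT. That window lies wholly inside the gene as GENCODE annotates it. Both CCAAT matches of Idi1 and the second of Tmem97, 40 bases before its RefSeq start, also lie past the GENCODE start of their gene. The letters TCACNCCAC stood in the Hmgcs1 window alone among the 6, and in 1.05% of all windows. Its shorter core CACNCCAC, which the longer motif contains, stood in Hmgcs1 and in Insig1, there past the GENCODE start, and in 5.29% of all windows. GGGCGG, the letters of an Sp1 box, stood in all 6 and in 12 of the 13, against 32.72% of all windows. These matches are descriptions of the letters and show no binding.

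Tmem97 (ENSMUSG00000037278.9, GRCm38 chromosome 11, 78541817 to 78550777, minus strand) had normalised counts of 27.8, 27.8 and 24.0 CPM (counts scaled to the size of each library) in tdT+GFP+ libraries 1, 2 and 3, against 20.97, 20.03 and 17.7 CPM in tdT-GFP+ libraries 1, 2 and 3. Every tdT+GFP+ library stood above every tdT-GFP+ library. The means were 26.5 ± 2.18 CPM for tdT+GFP+ and 19.6 ± 1.67 CPM for tdT-GFP+ (SD, n = 3 each), a log2 fold change of 0.44 (SE 0.10), where positive values mean higher in tdT+GFP+ cells. The difference was 0.41, 0.47 and 0.44 on the log2 CPM scale in kidneys 1, 2 and 3. These values were similar, in a gene chosen among those higher in every kidney.

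Hmgcs1 (ENSMUSG00000093930.2, chromosome 13, 119690379 to 119708260, plus strand) encodes the cytosolic synthase that makes HMG-CoA, an early intermediate of the pathway. It had 84.8, 94.5 and 97.8 CPM in tdT+GFP+ libraries 1, 2 and 3, against 110.3, 59.8 and 83.8 CPM in tdT-GFP+ libraries 1, 2 and 3. The groups overlapped, since tdT-GFP+ library 1 was the highest of the 6 and tdT-GFP+ library 2 the lowest. The log2 fold change was 0.13 (SE 0.21), and it had the other sign without tdT-GFP+ library 2 (-0.08). Idi1 (ENSMUSG00000058258.14, chromosome 13, 8885501 to 8892451, plus strand), whose enzyme interconverts the isoprenoid building blocks, had 28.7, 28.2 and 25.8 CPM in tdT+GFP+ libraries, against 30.1, 14.7 and 18.0 CPM in tdT-GFP+ libraries. Again tdT-GFP+ library 1 was the highest, and the other two tdT-GFP+ libraries were the lowest. The log2 fold change was 0.40 (SE 0.26).

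Fdft1 (ENSMUSG00000021273.11, chromosome 14, 63145150 to 63179578, minus strand) encodes squalene synthase, the step that commits the pathway to sterols. Its values were 33.2, 32.4 and 37.1 CPM in tdT+GFP+ libraries 1, 2 and 3, against 39.5, 25.2 and 27.2 CPM in tdT-GFP+ libraries 1, 2 and 3, a log2 fold change of 0.16 (SE 0.18). It was 0.40 without tdT-GFP+ library 1 and 0.03 without tdT-GFP+ library 2. The groups overlapped through tdT-GFP+ library 1 alone. The gene overlaps Ctsb on the opposite strand, which had a mean count of 31174 per library, and the sources used here do not give whether strand entered the counting. Sqle (ENSMUSG00000022351.14, chromosome 15, 59315077 to 59331192, plus strand) encodes squalene epoxidase, a rate-controlling enzyme of the later pathway. It had 63.5, 63.0 and 54.1 CPM in tdT+GFP+ libraries, against 59.98, 36.1 and 44.98 CPM in tdT-GFP+ libraries (log2 fold change 0.36, SE 0.18). Only tdT-GFP+ library 1 reached the range of the tdT+GFP+ libraries.

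Lss (ENSMUSG00000033105.12, chromosome 10, 76531588 to 76557138, plus strand) encodes lanosterol synthase, which closes the sterol rings. Its values were 21.8, 22.6 and 18.5 CPM in tdT+GFP+ libraries 1, 2 and 3, against 18.9, 12.1 and 15.1 CPM in tdT-GFP+ libraries 1, 2 and 3, a log2 fold change of 0.44 (SE 0.17). The overlap was slight, as tdT-GFP+ library 1 stood just above tdT+GFP+ library 3. Dhcr7 (ENSMUSG00000058454.15, chromosome 7, 143823145 to 143848410, plus strand) encodes the reductase of the last step of the Kandutsch-Russell branch to cholesterol. It had 16.8, 16.3 and 15.0 CPM in tdT+GFP+ libraries, against 14.7, 11.1 and 13.6 CPM in tdT-GFP+ libraries (log2 fold change 0.29, SE 0.13). The groups did not overlap, but the lowest tdT+GFP+ library and the highest tdT-GFP+ library lay close together.

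Insig1 (ENSMUSG00000045294.11, chromosome 5, 28071363 to 28078662, plus strand) encodes the sterol-dependent brake on SREBP processing and is itself a target of SREBP. Its values were 80.2, 74.3 and 102 CPM in tdT+GFP+ libraries 1, 2 and 3, against 111, 69.8 and 69.5 CPM in tdT-GFP+ libraries 1, 2 and 3. The means, 85.6 ± 14.8 CPM for tdT+GFP+ and 83.6 ± 24.1 CPM for tdT-GFP+ (SD, n = 3 each), lay much closer together than the libraries of either group. The log2 fold change was 0.03 (SE 0.22), with the other sign without tdT+GFP+ library 3 (-0.11), without tdT-GFP+ library 2 (-0.09) and without tdT-GFP+ library 3 (-0.08).

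**Figure D1:**
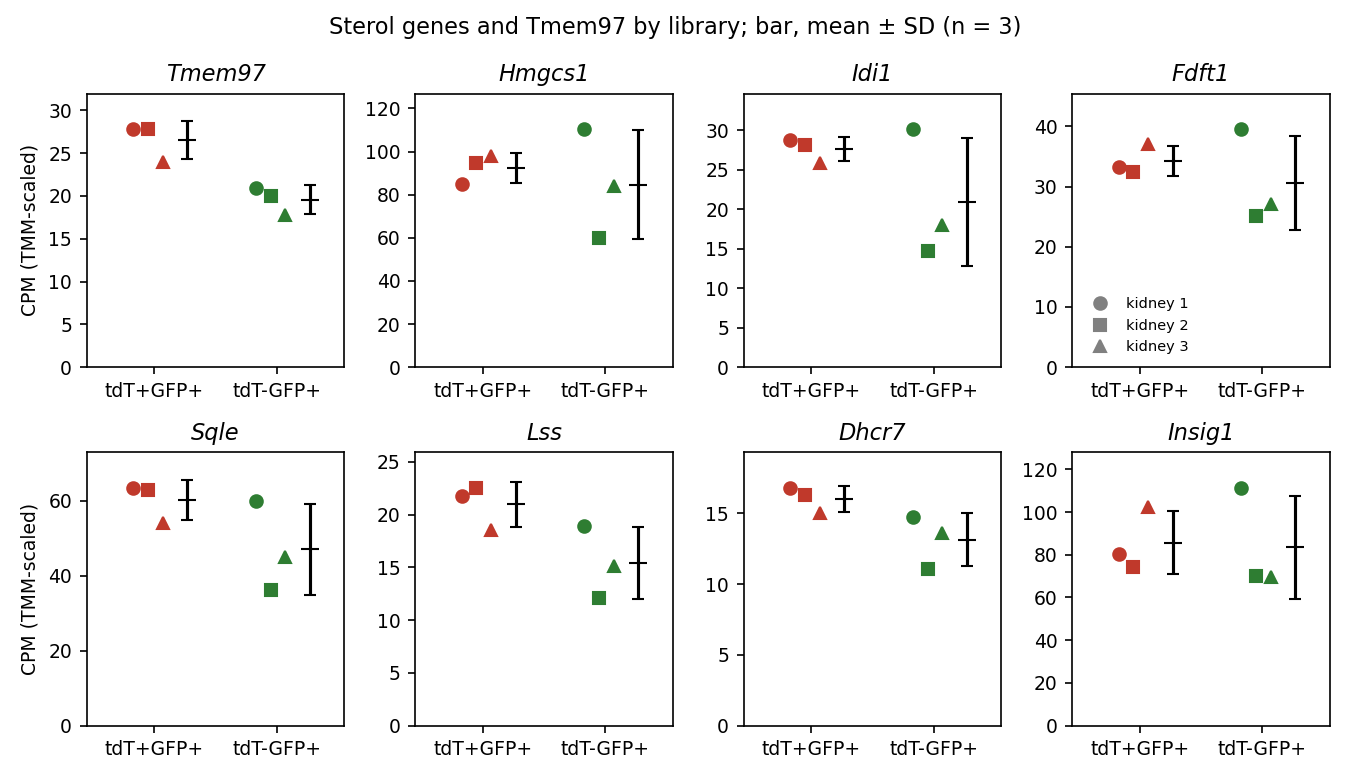
Normalised counts (CPM on TMM-scaled library sizes, vertical axes from 0) of the 8 genes in each tdT+GFP+ library (red, left) and tdT-GFP+ library (green, right); marker shapes are kidneys 1, 2 and 3 and black bars are the mean ± SD (n = 3). Tmem97 and Dhcr7 do not overlap between the groups, and in the other 6 panels tdT-GFP+ library 1 reaches into or above the tdT+GFP+ range.

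Of the 8 genes, 8 had a positive log2 fold change, with a median of 0.32, beside 49.9% positive and a median of -0.000385 over all 15462 genes tested. Values did not overlap for 2 of the 8, both higher in tdT+GFP+ cells, where 7.23% of all genes tested were higher and 8.6% lower without overlap. Tmem97, Sqle, Lss and Dhcr7 (4 of 8) were higher on the tdT+GFP+ side of all 3 kidneys and none was lower in all 3, where 15.4% of all genes were higher and 17.1% lower. None of the 8 was called by edgeR's quasi-likelihood test at a Benjamini-Hochberg adjusted p under 0.05, which called 0% of all genes. The DESeq2 Wald test, with or without the kidney as a block, and limma-voom called none of the 8 either. DESeq2 called 15 genes higher (0.097% of those with an adjusted p) and 247 lower (1.6%). Because this comparison served to choose the set, these shares say nothing further about it.

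In the sorted libraries, fewer cells of a type and less RNA per cell cannot be told apart. The library that parted from its group was tdT-GFP+ library 1, which was the highest of the 6 for Hmgcs1, Idi1, Fdft1 and Insig1 (4 of 8 genes, beside 9.84% of all genes), and tdT-GFP+ library 2 was the lowest for 6 of the 8 (22.2% of all genes). Summed over the 8 genes, the level was 357, 359 and 375 CPM in tdT+GFP+ libraries 1, 2 and 3, against 406, 249 and 290.0 CPM in tdT-GFP+ libraries 1, 2 and 3. Without tdT-GFP+ library 1 the values of 8 of the 8 did not overlap, with tdT+GFP+ cells higher, where 20.9% of all genes did so, and the median log2 fold change was 0.45. Without tdT-GFP+ library 2 the median was 0.18 and the number 2, where 12% of all genes did so. Without tdT+GFP+ library 3 the number was 4 (18.6% of all genes), without kidney 3 it was 4 (23.9%) and without kidney 1 it was 8 (22.8%).

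Leaving out 1 library moved the log2 fold change of 7 of the 8 genes by over 1.5 times or across 0. It moved 7 without tdT-GFP+ library 2, 5 without tdT-GFP+ library 1 and 1 or 2 without each other library. Values near 0 meet this bound easily, and Insig1, at 0.03, moved whichever library was left out. No such share over all genes is given. Tmem97 was the exception (0.37 to 0.51). It was chosen by its small p-value among genes higher in every kidney, and such a choice favours a steady difference. Without tdT-GFP+ library 1 the log2 fold change was 0.77 for Idi1, 0.59 for Sqle and 0.64 for Lss. Without tdT-GFP+ library 2 it was 0.19 for Idi1, 0.19 for Sqle, 0.29 for Lss and 0.17 for Dhcr7.

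Within kidney 1 the median difference of the 8 genes was 0.01 on the log2 CPM scale and 4 of 8 were higher in tdT+GFP+ cells. In kidney 2 the median was 0.60 and in kidney 3 it was 0.36, with 8 of 8 higher in both. Idi1, for example, differed by -0.07, 0.94 and 0.52 and Hmgcs1 by -0.38, 0.66 and 0.22 in kidneys 1, 2 and 3. The coefficient of variation over 3 libraries ran from 5.54% (Idi1) to 17.2% (Insig1) in tdT+GFP+ cells, and from 8.53% (Tmem97) to 38.8% (Idi1) in tdT-GFP+ cells.

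**Figure D2:**
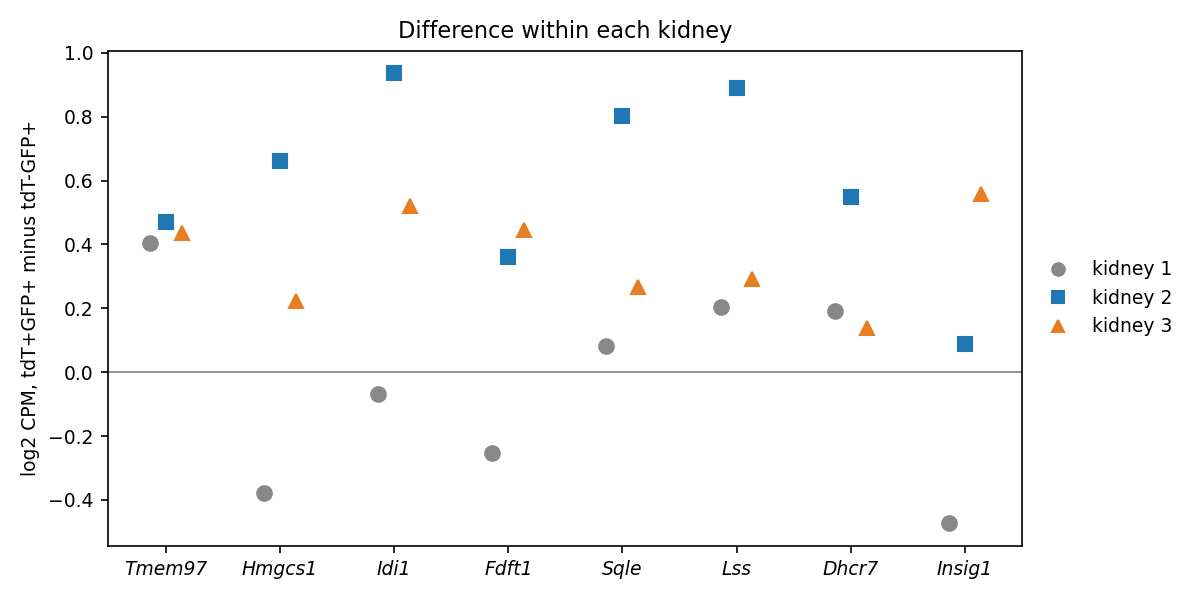
Difference in log2 CPM, tdT+GFP+ minus tdT-GFP+, within kidney 1 (grey circles), kidney 2 (blue squares) and kidney 3 (orange triangles) for each of the 8 genes. Kidneys 2 and 3 lie above 0 for every gene, kidney 1 lies below 0 for Hmgcs1, Idi1, Fdft1 and Insig1, and the 3 points of Tmem97 lie together.

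Levels were compared between genes per kilobase of annotated exon. Over the 6 libraries Insig1 stood highest at a median of 25.0 CPM per kilobase (22.5 to 36.0), followed by Hmgcs1 at 19.5 (13.0 to 24.0) and Tmem97 at 16.4 (12.9 to 20.2). Sqle had 10.3 (6.52 to 11.5), Fdft1 7.76 (5.96 to 9.35) and Idi1 7.70 (4.19 to 8.59). Dhcr7, with 2.55 (1.91 to 2.89), and Lss, with 1.74 (1.13 to 2.09), were the least abundant. Neighbours whose ranges overlapped were Insig1 and Hmgcs1, Hmgcs1 and Tmem97, Sqle and Fdft1, Fdft1 and Idi1, and Dhcr7 and Lss. Within single libraries, however, Insig1 was above Hmgcs1 in 6 of 6, Sqle above Fdft1 in 6 of 6 and Dhcr7 above Lss in 6 of 6, while Hmgcs1 was above Tmem97, and Fdft1 above Idi1, in 4 of 6. Among all genes tested, these levels per length ran from the 30.8th percentile for Lss to the 90.4th for Insig1. The order by mean was the same with the longest transcript as the length.

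Across the 6 libraries the log2 CPM of the 8 genes correlated pairwise by 0.13 (Tmem97 and Insig1) to 0.98 (Sqle and Lss), with a median of 0.75 over 28 pairs. Against the mean of the other 7, Idi1 had the highest correlation (0.99) and Insig1 (0.57) and Tmem97 (0.61) the lowest. These are descriptions over 6 libraries from 3 kidneys that share scaling and group, and they carry no test.

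The other enzymes of the pathway, listed by their place in it but with earlier results of these data known, had mostly positive fold changes and none passed the test. Of 16 genes, 15 had positive values with a median of 0.24, all had adjusted p from 0.409 to 0.858 (edgeR quasi-likelihood test over all genes), and 0 were called by edgeR, DESeq2 or limma-voom. At an unadjusted p under 0.05 there was 1, Nsdhl, higher in tdT+GFP+ cells as were 3.71% of all genes. The medians within kidneys 1, 2 and 3 were 0.07, 0.43 and 0.22.

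Among the mevalonate genes, Fdps, whose enzyme makes farnesyl diphosphate, had a log2 fold change of 0.36 (SE 0.19), the decarboxylase gene Mvd 0.24 (SE 0.14), the kinase genes Mvk 0.17 (SE 0.10) and Pmvk -0.06 (SE 0.11), and the thiolase gene Acat2 0.04 (SE 0.08). The groups overlapped for all 5 of these genes.

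After squalene, Cyp51, the lanosterol demethylase, had 109 ± 4.65 CPM over the 3 tdT+GFP+ libraries and 81.1 ± 33.6 CPM over the 3 tdT-GFP+ libraries (mean ± SD, log2 fold change 0.42, SE 0.27). Nsdhl, which encodes a sterol dehydrogenase, did not overlap between the groups (0.34, SE 0.09, adjusted p = 0.409, edgeR). It had 20.9, 21.05 and 18.4 CPM in tdT+GFP+ libraries and 16.7, 15.2 and 15.7 CPM in tdT-GFP+ libraries 1, 2 and 3. Ebp, a sterol isomerase that shares the EXPERA domain with TMEM97, also did not overlap (0.23, SE 0.10). Values were 0.40 (SE 0.28) for the methylsterol oxidase gene Msmo1, 0.36 (SE 0.21) for Hsd17b7 and 0.27 (SE 0.23) for Tm7sf2. Values of Lbr (0.05), Sc5d (0.08) and Erg28 (0.07) lay near 0. Among the 14 enzymes named, leaving out 1 library moved 11 by over 1.5 times or across 0. Without tdT-GFP+ library 1 and without tdT-GFP+ library 2, the log2 fold change was 0.83 and 0.22 for Cyp51, 0.82 and 0.20 for Msmo1, 0.63 and 0.24 for Fdps, and 0.62 and 0.20 for Hsd17b7. Nsdhl, Ebp and Mvk stayed within that bound.

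**Figure D3:**
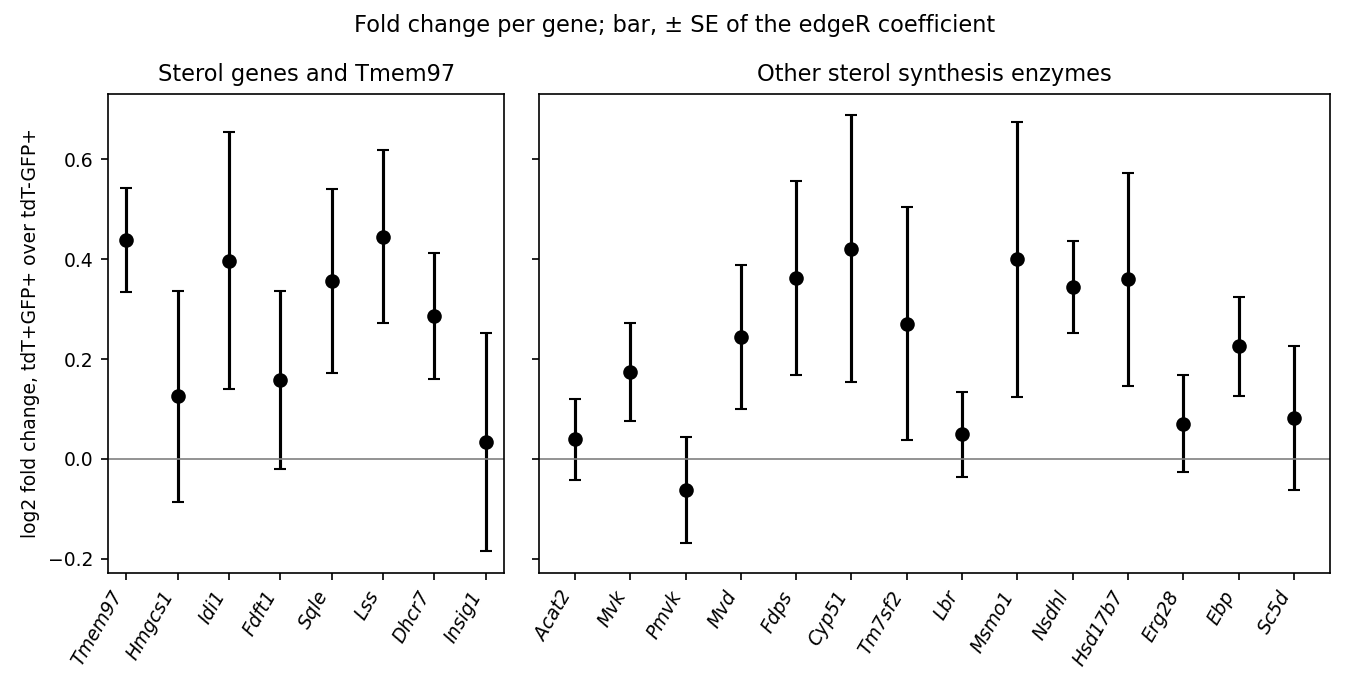
Log2 fold change of tdT+GFP+ over tdT-GFP+ cells (edgeR coefficient, bars ± SE) for the 8 genes (left) and 14 of the 16 other sterol synthesis enzymes in pathway order (right). All points lie between -0.06 and 0.44, and Pmvk is the one below 0.

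Log2 fold changes of the genes that sense sterol and control the pathway lay between -0.09 and 0.30. Of 12, 8 had positive values (median 0.10), none passed the edgeR test over all genes (adjusted p from 0.440 to 0.868), none was called by DESeq2 or limma-voom and 1, higher in tdT+GFP+ cells, had an unadjusted p under 0.05, as did 3.71% of all genes. That gene, Rnf139, encodes a ubiquitin ligase of the endoplasmic reticulum and had 0.30 (SE 0.10). Mbtps2, the protease of the second cut of SREBP, had 0.30 (SE 0.15), Erlin1 0.28 (SE 0.16) and Srebf1, the gene of SREBP1, 0.14 (SE 0.09). Srebf2, the gene of SREBP2, averaged 193 CPM in tdT+GFP+ and 167 CPM in tdT-GFP+ cells (0.21, SE 0.15, outside the naming rule and chosen after its values were seen).

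Among 15 genes of cholesterol uptake and movement, 8 had positive and 7 negative values (median 0.05), and 0 passed in edgeR (adjusted p from 0.394 to 0.992). At an unadjusted p under 0.05 there were 2, both lower in tdT+GFP+ cells, as were 6.97% of all genes. Mylip, which encodes a ubiquitin ligase induced by LXR, had 28.8 ± 1.92 CPM over the 3 tdT+GFP+ libraries and 48.8 ± 11.1 CPM over the 3 tdT-GFP+ libraries (mean ± SD, log2 fold change -0.76, SE 0.17, adjusted p = 0.394 in edgeR), and its values did not overlap. It was called lower by DESeq2 at an adjusted p of 0.0121 (0.00698 in its fit with a kidney term) and not by limma-voom. The HDL receptor gene Scarb1 had -0.29 (SE 0.09) and Npc1, the gene of the lysosomal cholesterol transporter, 0.22 (SE 0.11).

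Of 9 genes of efflux, storage and oxysterols, 5 had positive values (median 0.09), 0 passed in edgeR (adjusted p from 0.456 to 0.951), and 1 was higher at an unadjusted p under 0.05 (3.71% of all genes). That gene was Ch25h, whose enzyme makes 25-hydroxycholesterol, an oxysterol that holds SREBP back, with 95.2 ± 31.5 CPM over the 3 tdT+GFP+ libraries and 55.7 ± 16.4 CPM over the 3 tdT-GFP+ libraries (mean ± SD, log2 fold change 0.77, SE 0.31). The DESeq2 fit with a kidney term called Ch25h higher (adjusted p = 0.0239), and the fit without that term did not (adjusted p = 0.221). The oxysterol hydroxylase gene Cyp7b1 had 0.39 (SE 0.16), the cholesterol ester gene Soat1 0.38 (SE 0.19) and Nr1h3, the gene of LXR alpha, -0.16 (SE 0.11).

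The fatty acid branch of SREBP targets was split, with 8 of 14 positive and a median of 0.04. None of its genes passed in edgeR (adjusted p from 0.388 to 0.996), and 1 of 14 was lower at an unadjusted p under 0.05, about the share of all genes (6.97%). Acacb, the mitochondrial acetyl-CoA carboxylase, had 8.19 ± 0.477 CPM over the 3 tdT+GFP+ libraries and 17.0 ± 4.22 CPM over the 3 tdT-GFP+ libraries (mean ± SD, log2 fold change -1.05, SE 0.19), without overlap. It was called lower by DESeq2 at an adjusted p of 0.000844 (0.00294 in its fit with a kidney term) and not by limma-voom. The desaturase genes Scd1 and Fads2 had 0.28 (SE 0.13) and 0.22 (SE 0.11), and the acetyl-CoA synthetase gene Acss2 had -0.23 (SE 0.11).

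Genes of the other isoprenoid branches, which lead to ubiquinone, dolichol and prenylated proteins, had 10 of 14 positive values and a median of 0.06, and 0 passed in edgeR (adjusted p from 0.438 to 0.988) or were called by DESeq2. At an unadjusted p under 0.05 there was 1 of 14, the prenyltransferase gene Rabggtb (0.24, SE 0.08), higher as were 3.71% of all genes. Ggps1, which makes geranylgeranyl diphosphate, had 0.15 (SE 0.07), Pdss1 0.47 (SE 0.22) and Zmpste24 0.20 (SE 0.10). Of 5 relatives and partners of TMEM97, 3 had positive values (median 0.02), 0 passed in edgeR (adjusted p from 0.438 to 0.948) or were called by DESeq2, and 1 was higher at an unadjusted p under 0.05 (3.71% of all genes). Pgrmc1, long discussed as the sigma-2 receptor before TMEM97, had 0.02 (SE 0.07), the family member Tm6sf1 -0.15 (SE 0.29) and Tm6sf2 -0.22 (SE 0.46) at 0.463 CPM in tdT+GFP+ and 0.543 CPM in tdT-GFP+ cells.

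The genes most like the set were found by the correlation of log2 CPM over the 6 libraries with the mean standardised profile of the 8 genes, among 13862 other genes with a mean of at least 1 CPM. Of the first 10, with r from 0.998 to 0.994, 9 were Dcaf10, Phf6, Kpnb1, Rad23b, Tnfaip2, Eif3j1, Gosr2, Aldh1l2 and Gmppb. Aldh1l2, which encodes a mitochondrial enzyme of folate metabolism, had 13.9, 13.8 and 11.8 CPM in tdT+GFP+ libraries 1, 2 and 3, against 13.8, 3.998 and 5.38 CPM in tdT-GFP+ libraries 1, 2 and 3. It was thus high in the same 4 libraries as Idi1 and low in the same 2. Cyp51 (r = 0.989), Srebf2 (0.988) and Msmo1 (0.978) stood at places 25, 27 and 93. An r of at least 0.9 was reached by 6 of the 16 other enzymes and by 5.94% of the 13862 genes, and it ran down to -0.48 for Pmvk. With 6 libraries the profile is that of many genes, so these values are descriptions.

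**Figure D4:**
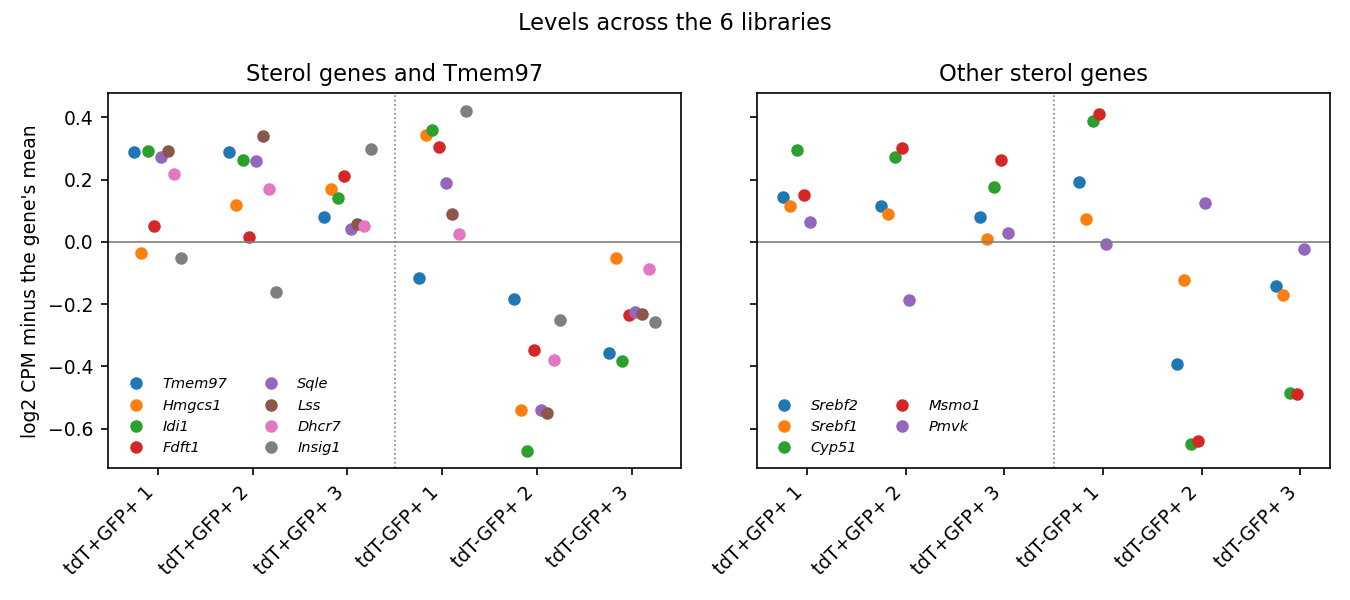
Log2 CPM of each gene minus its own mean over the 6 libraries (points, coloured by gene) for the 8 genes (left) and for Srebf2, Srebf1, Cyp51, Msmo1 and Pmvk (right); tdT+GFP+ libraries stand left of the dotted line and tdT-GFP+ libraries right of it. Most genes lie above their mean in tdT-GFP+ library 1 as in the tdT+GFP+ libraries and below it in tdT-GFP+ libraries 2 and 3, while Tmem97 lies below it in all 3 tdT-GFP+ libraries.

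Total counts ran from 26919514 to 33029933 in tdT+GFP+ and from 25697348 to 31337198 in tdT-GFP+ libraries, and the lowest count of any of the 8 genes was 297. The labelled cell type was checked on 8 myofibroblast and fibroblast genes. Their sums were 45428, 43757 and 49021 CPM in tdT+GFP+ libraries 1, 2 and 3. In tdT-GFP+ libraries 1, 2 and 3 they were 50051, 40082 and 33516 CPM. Most of each sum came from Col1a1 (means 20580 and 18434 CPM in tdT+GFP+ and tdT-GFP+) and Col3a1 (18894 and 17264 CPM). All 8 had positive log2 fold changes (median 0.15), and edgeR and DESeq2 called none. Their median log2 CPM differences within kidneys 1, 2 and 3 were -0.15, 0.23 and 0.56. The 10 endothelial markers summed to 454 to 747 CPM in tdT+GFP+ and 1025 to 1764 CPM in tdT-GFP+ libraries. All 10 had negative log2 fold changes (median -1.30). DESeq2 called 8 of them lower (1.6% of all genes), or 6 in its fit with a kidney term (1.59%). The edgeR test called 0, with 9 lower at an unadjusted p under 0.05 (6.97%). Within kidneys 1, 2 and 3 the median log2 CPM differences were -1.59, -0.34 and -1.64. In kidney 2, 2 of the 10 endothelial markers were higher in tdT+GFP+ cells. All 10 macrophage markers had positive values and none was called by either tool. Within kidneys 1 and 2 all 10 were higher in tdT+GFP+ cells (median log2 CPM differences 0.95 and 1.81), and within kidney 3 none was (median -1.11). The 10 macrophage markers summed to 448 to 1627 and 328.5 to 978 CPM, the 10 proximal tubule markers to 581 to 727 and 435 to 1372 CPM, the 6 injured tubule markers to 218 to 373 and 263 to 667 CPM, and the 8 mural cell markers to 1094 to 1314 and 1311 to 2140 CPM in tdT+GFP+ and tdT-GFP+ libraries. Among the proximal tubule markers, Aqp1 alone had 216, 56.7 and 443 CPM in tdT+GFP+ libraries 1, 2 and 3, against 92.8, 1070.1 and 174 CPM in tdT-GFP+ libraries 1, 2 and 3. The other 9 summed to 365, 671 and 209 CPM in tdT+GFP+ libraries, against 343, 302 and 936 CPM in tdT-GFP+ libraries, so the libraries in which they were high differed from those of Aqp1. Of the 8 mural markers 7 had negative log2 fold changes (median -0.50), and 4 were lower at an unadjusted edgeR p under 0.05 (6.97%). DESeq2 called 1 mural marker lower, with or without a kidney term. All 6 injured tubule markers (median -0.58) and 7 of the 10 proximal tubule markers (median -0.12) had negative values. DESeq2 called none of these tubule markers, and its fit with a kidney term called 1 of each list lower. No gene of these lists was at 0 in any library. Gene models that overlap ribosomal RNA took 0.448% to 0.692% of counts in tdT+GFP+ libraries, against 0.889%, 1.18% and 1.36% in tdT-GFP+ libraries 1, 2 and 3. Here tdT-GFP+ library 1 stood nearest the tdT+GFP+ libraries. For the endothelial and mural sums tdT-GFP+ library 2 was nearest instead. The endothelial sums were 1347, 1025 and 1764 CPM and the mural sums 1825, 1311 and 2140 CPM in tdT-GFP+ libraries 1, 2 and 3. The sum of 12 proliferation genes was alike, 455 to 493 CPM in tdT+GFP+ and 452 to 491 CPM in tdT-GFP+ libraries. Of these 12, 9 had positive values (median 0.08), none passed in edgeR (adjusted p from 0.483 to 0.982) and none had an unadjusted p under 0.05 or was called by DESeq2 or limma-voom. Bub1 had 0.28 (SE 0.13), Aurkb 0.22 (SE 0.10), Plk1 0.16 (SE 0.10) and Mki67 -0.11 (SE 0.08). The part of these cells and of RNA quality in the sterol gene values was not tested. Axin2 averaged 48.9 CPM in tdT+GFP+ and 44.9 CPM in tdT-GFP+ cells and Acta2 1579.7 and 1158 CPM, with overlap between the groups for both. Acta2 had 1577, 1416 and 1747 CPM in tdT+GFP+ libraries 1, 2 and 3. In tdT-GFP+ libraries 1, 2 and 3 it had 1588.5, 943.6 and 943.4 CPM, so library 1 was again the high one of its group. Whether this bears on the sterol gene values was not tested.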

How the data were processed

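RNA was measured in 6 libraries, 3 per group, made from poly(A) RNA with a strand-specific kit per the labels' protocols. Per the file headers, the deposited estimated counts came from RSEM gene results. All were whole numbers in the table. The submitters' processing notes list RSEM 1.2.28, STAR 2.6.1, bcl2fastq 2.20, R 3.6.3 and DESeq2 1.26.0, and the builds mm10 and GRCh38, with no role given. The 92 ERCC rows were 0 in all libraries and were left out. Of 31815 gene identifiers, 31748 were found in GENCODE M21 (GRCm38) without their version numbers, which gave coordinates and exon lengths.

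All 8 genes passed filterByExpr. After TMM scaling, the quasi-likelihood test of edgeR 4.0.16 (R 4.3.3; robust glmQLFit, then glmQLFTest) was run over all genes, and an adjusted p (Benjamini-Hochberg) under 0.05 counted as a call. Group was the sole model term. Fold changes were not shrunken, and a prior count of 2 was used for log2 CPM. The procedure was tested on simulated data. A count of 3 corresponds to 0.0908 to 0.117 CPM, so spread between libraries limits these genes more than depth. The 8 genes and all lists were chosen with earlier results of these data known. By rule, the 8 genes were named, with the 16 other enzymes, up to 4 genes with the smallest p per further list, Axin2 and Acta2 as checks, and the 10 most similar genes. A few of these are not reported here, though counts and medians of lists include them.

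The labels' source names give same-numbered libraries of both groups the same kidney, so the numbers pair them. As a check, the deviations of each library from its group mean were compared: over genes, r was 0.04, -0.58 and -0.30 within kidneys 1, 2 and 3, and by 0.44 and 0.45 between libraries numbered 2 and 3 of different groups. Such deviations cancel within a group and depend on each other, so values per kidney rest on the labels. All replicate pairs differed by more than counting noise. The alternatives tried were limma-voom 3.58.1, DESeq2 1.42.0, its size factors, upper-quartile factors, 2 other filters (none, or at least 1 CPM in 3 libraries), the kidney as a block, leaving out each library or kidney, and the longest transcript as length.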

Additional observations from a re-analysis of the deposited data

How the results depend on the processing

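The number of all genes called was 0 in every alternative run with edgeR and 0 with limma-voom. It was 262 with DESeq2, and 276 in DESeq2 with the kidney as a replicate block. With the replicate block edgeR called 0 genes and the median log2 fold change was 0.34 for the 8 genes and 0.26 for the 16 other enzymes. The block added the DESeq2 call of Ch25h and changed no other call among the genes named.

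Leaving out 1 library or kidney, the median of the 8 genes ran from 0.16 to 0.46 and that of the 16 enzymes from 0.14 to 0.34, lowest without kidney 2 and highest without kidney 1 for both. The number of the 8 without overlap ran from 2 to 8. The scalings and filters left both medians within 0.01 and the number at 2. That number rests on scaled counts alone, so no such value came from DESeq2, limma-voom or the block fits. The sign held in all 17 alternatives for 6 of the 8 genes and 10 of the 14 enzymes named.

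The other sign appeared only when libraries were left out. The log2 fold changes then ran from -0.10 to 0.44 for Hmgcs1, from -0.23 to 0.36 for Insig1, from -0.12 to 0.053 for Pmvk, from -9.3e-05 to 0.44 for Tm7sf2, from -0.040 to 0.14 for Lbr, from -0.070 to 0.32 for Sc5d, from -0.48 to 0.28 for Tm6sf1, from -0.56 to 0.40 for Tm6sf2, from -0.022 to 0.094 for Pgrmc1 and from -0.38 to 0.72 for Axin2. Of the 28 further genes named, 18 moved by over 1.5 times or across 0 when 1 library was left out, most often tdT-GFP+ library 2 (12 genes). The cause was not tested.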
